A study of Mus musculus with 58 samples.

Results

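Gabra3, Nap1l2, Spin4, Heph and Smarca1 are 5 X-linked mouse genes with large allelic falls after Xist induction in embryonic stem (ES) cells whose SPEN protein carries a mutated SPOC domain. The deposited allelic table holds these 5 and 241 other X-linked genes, out of 908 X-linked and 22556 genes in all in the count files. The readout was the Dom share, the fraction of allele-assigned fragments that came from the Dom (129S) chromosome, so that 0.5 is equal output from both X chromosomes and 0 is no fragment from the Dom copy. The genes were selected on the Dom share itself, by a large fall from its day 0 value in the SPOC line on ES day 1 or on day 6 of differentiation to neural precursor cells (NPC).

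All cells were female, carried X chromosomes of 129S and of Castaneus (Cast) origin, and had the Xist promoter of the 129S chromosome replaced by a TetOn promoter, so that doxycycline at 1 µg/mL switched on Xist from that chromosome alone. Chromatin-associated RNA was sequenced from uninduced ES cells (day 0), ES cells after 1 day, and NPC cultures after 3 and 6 days of continuous doxycycline. The SPOC line had the SPOC mutation alone (clones C11, D9 and H1 in ES culture, D9 and H1 in NPC culture, n = 3 and 2). PCGF35 cells had FKBP12 degron tags on PCGF3 and PCGF5 and an intact SPOC domain, and PCGF35_SPOC cells had the tags and the SPOC mutation (clones F10 and F6). Both were cultured untreated or with dTAG-13, a small molecule that leads the tagged proteins to degradation, added at 100 µM from 12 h before doxycycline. Uninduced treated cells got no doxycycline, so this timing does not give the length of their treatment, which only the library names of PCGF35_SPOC state. DelPID cells lacked the B/C repeat of Xist, named PID. DelPID_SPOC cells (clones A8 and G3) were in addition named for the SPOC mutation in their titles, while their engineering label gave only the PID deletion. WT cells had the TetOn Xist alone, and WT and DelPID cells were sampled on NPC days 3 and 6 only. Of the 28 groups, 26 held 2 libraries and 2 held 3, and each SPOC-mutant line is known here from 2 or 3 clones, of which G3, clone G of the study, is described there as tetraploid. For PCGF35, DelPID and WT the labels give replicate numbers and no clones.

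Xist is the noncoding RNA that coats one X chromosome of female cells and silences it. It recruits the repressor SPEN through its A repeat, and the SPOC domain of SPEN binds the corepressors that link it to histone deacetylation. In parallel, the B/C repeat brings in Polycomb through hnRNPK and the PRC1 complexes that contain PCGF3 or PCGF5, which place ubiquitin on histone H2A. The 5 genes do unlike things. Gabra3 encodes the alpha-3 subunit of the GABA-A receptor, a ligand-gated chloride channel of neurons. Nap1l2 is a nucleosome assembly protein of neurons, Spin4 a spindlin, a family of readers of methylated histone H3, Heph the multicopper ferroxidase hephaestin, which oxidises iron on its way out of intestinal cells, and Smarca1 the ISWI-type ATPase SNF2L, a nucleosome remodeller.

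The genes lay far apart on the X chromosome in the coordinates of the deposited allelic table (mm10). Nap1l2 (chrX:103184058-103186664, minus strand) had its start 0.297 Mb from that of Xist, the 3rd nearest gene of the table. Heph (chrX:96455435-96574484, plus strand) lay 7.03 Mb and Spin4 (chrX:95022506-95026682, minus strand) 8.46 Mb from it. Gabra3 (chrX:72432675-72656246, minus strand) lay 30.8 Mb away, and Smarca1 (chrX:47809369-47892552, minus strand) lay 55.6 Mb away and ranked 160 by distance, where the median of the table was 44.7 Mb. The study reports a recombination event in this cell line that left some X-linked genes without allelic values. Ranks and median therefore cover only part of the chromosome. All 5 were protein-coding in the GENCODE annotation of the same build. Nap1l2 there lay on the same strand within the longer locus 4930519F16Rik, so that reads of the host transcript can be counted to it, although the deposited table places that locus outside Nap1l2. The first 860 bases of the deposited Heph interval overlapped Hsf3 on the opposite strand, and the fragments were counted by strand. In uninduced ES cells and per kilobase of gene length, Gabra3 had the 2nd lowest total level of the table (mean 0.0344 CPM per kb, where CPM is the count of fragments scaled to a library's total counted fragments) and Heph the 7th lowest (0.0703), whereas Nap1l2 ranked 198 from the lowest (5.07) against a median of 1.87.

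RefSeq promoters on GRCm38.p6, the same build as mm10, were found for 192 genes of the table, among them Gabra3, Spin4 and Smarca1, and are shown because CpG-rich promoters are where Polycomb complexes are known to gather. Each runs from 250 bases before to 50 bases after the RefSeq start, 5′ to 3′ on the minus strand, with every CG in capitals. They lie at chrX:72656758-72657057 for Gabra3, chrX:95026633-95026932 for Spin4 and chrX:47892564-47892863 for Smarca1.
Gabra3: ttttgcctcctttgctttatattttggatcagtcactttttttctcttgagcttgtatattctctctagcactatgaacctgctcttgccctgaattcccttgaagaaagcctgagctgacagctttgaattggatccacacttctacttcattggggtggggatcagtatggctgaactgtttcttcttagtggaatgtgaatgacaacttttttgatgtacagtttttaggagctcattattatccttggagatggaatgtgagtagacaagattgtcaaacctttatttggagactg
Spin4: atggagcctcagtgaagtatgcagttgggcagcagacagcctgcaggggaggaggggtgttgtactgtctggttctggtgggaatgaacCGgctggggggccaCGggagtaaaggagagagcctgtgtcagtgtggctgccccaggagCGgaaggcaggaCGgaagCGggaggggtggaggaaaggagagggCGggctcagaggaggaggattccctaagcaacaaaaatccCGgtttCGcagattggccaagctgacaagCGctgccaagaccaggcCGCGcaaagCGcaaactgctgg
Smarca1: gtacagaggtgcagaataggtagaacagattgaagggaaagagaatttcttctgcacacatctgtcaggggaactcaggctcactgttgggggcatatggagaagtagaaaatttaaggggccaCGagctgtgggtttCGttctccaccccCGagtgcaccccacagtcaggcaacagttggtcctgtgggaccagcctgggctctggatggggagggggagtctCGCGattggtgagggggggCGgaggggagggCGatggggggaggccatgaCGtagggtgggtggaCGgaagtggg
The RefSeq start was 561 bases from the deposited start of Gabra3, 61 bases from that of Smarca1 and at that of Spin4. The motif CG, which reads the same on both strands, occurred in 188 of the 192 promoters with a median of 18 occurrences. The Gabra3 window held 0, that of Smarca1 9 and that of Spin4 12, so all 3 lay under the median, and GC content was 39.3% in Gabra3 and 61.0% in Spin4 against a median of 58.7%. These are letters in a window and not a measured site.

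The 58 libraries held 2292261 to 30005305 counted fragments each, of which 44.2% to 49.6% could be assigned to an allele. The 5 genes were thin beside most of the table. Their median allelic fragments per library were 24 for Nap1l2, 25 for Gabra3, 29 for Smarca1, 29.5 for Spin4 and 44 for Heph, against 190 for the median gene of the table. Xist stood at 34.2 to 135 CPM without and at 2377 to 13370 CPM with doxycycline. Spen reads were higher in SPOC-mutant than in other ES libraries, without overlap (237 to 360 against 71.4 to 149 CPM). In NPC libraries the median was also higher with the mutation, but the ranges overlapped. The Spen level thus differed between the lines compared, although a read count does not show the mutation itself. Whether the mutation caused the difference was not tested. The summed level of 5 pluripotency markers was 990 to 1925 CPM in ES and 310 to 1171 in NPC cultures, and that of 5 neural markers 27.0 to 118 and 31.9 to 403. Sox1, a defining marker, was at 0 in every group, ES and NPC alike, so it did not separate the cultures. Whether its fragments could be counted was not tested. NPC is used here as the name of the culture. The libraries are bulk samples, and fewer cells of a type cannot be told apart from less RNA per cell.

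Clone F10 of PCGF35_SPOC stood apart from F6 in NPC culture and already in ES culture, day 0 included. In ES libraries the neural marker sum was 109 to 118 CPM in F10 against 32.9 to 43.1 in F6. The feeder fibroblast marker sum there was 12.2 to 15.0 in F10 against 0.621 to 1.33 in F6. NPC culture showed larger gaps for F10. On day 6 its neural marker sum was 353 CPM untreated and 363 with dTAG-13 against 61.5 and 47.1 in F6, and its feeder fibroblast marker sum was 79.0 and 140 against 4.43 and 5.79, with Lum at 0 in both untreated libraries. In the other lines that sum was at most 26.8 in ES and 50.0 in NPC libraries. With dTAG-13 the F10 median Dom share over the allelic table went from 0.514 on day 0 to 0.579 on day 6. The summed Cast level of these genes went from 4826 to 2646 CPM, against 5492 and 4977 in F6. Untreated, the F10 sum was 4741 on day 0, 3687 on day 3 and 4037 on day 6, against 5288, 5037 and 4972 in F6. For a clone of this line other than F6, the study describes an upward skew of the allelic ratio in NPC culture. It interprets this as selection for cells that eliminated the Cast X chromosome. It also sub-cloned F6, which had held cells with 1 X chromosome. Loss of the Cast X would raise the Dom share of every gene, and it was not tested here. Calls that changed without F10 are given with that value. The DelPID NPC day 6 replicate 1 was the shallowest library, and it held only 2 to 12 allelic fragments for each of the 5 genes.

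**Figure D1:**
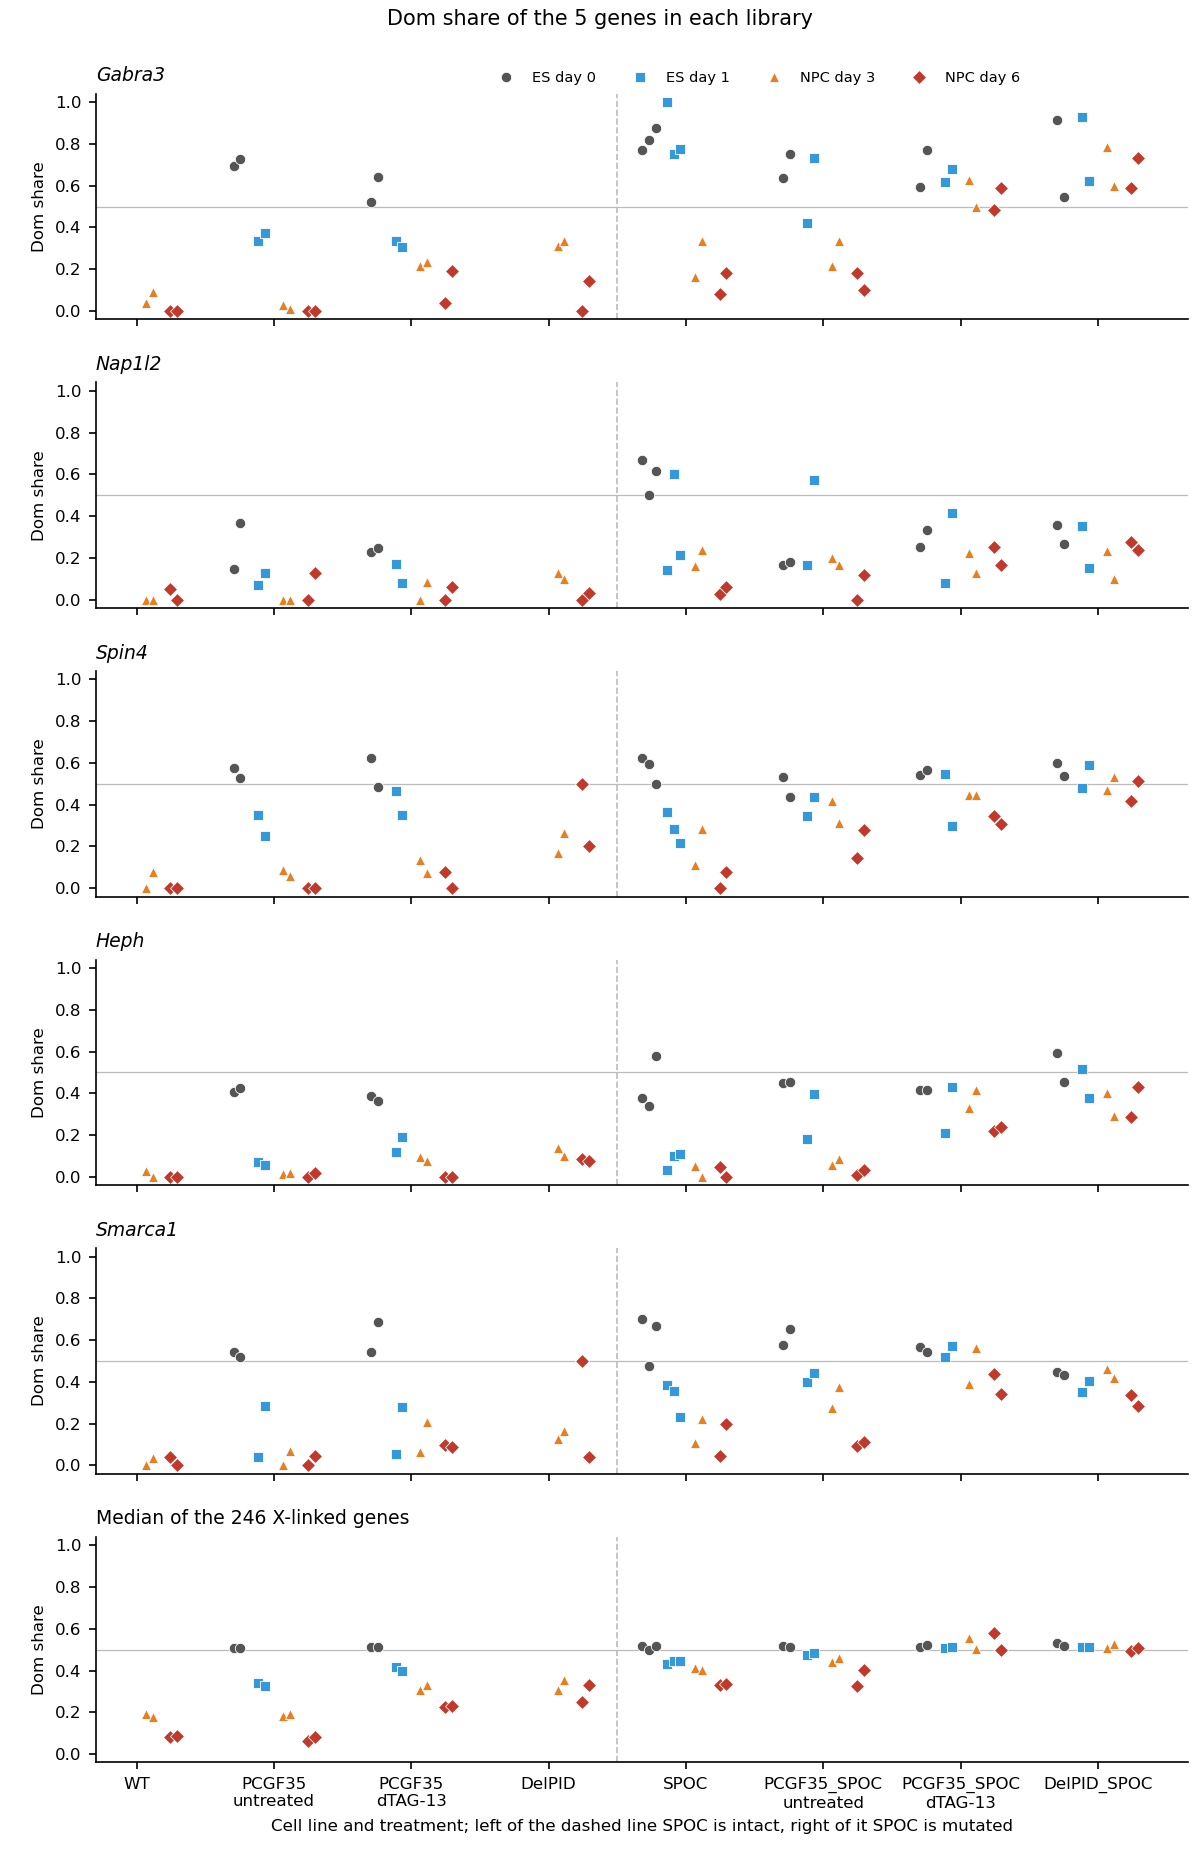
Dom share (fraction of allelic fragments from the Dom allele, 0 to 1) of each of the 5 genes, and the median of all genes of the allelic table, in every library by cell line, treatment and day; each point is 1 library and the grey line marks 0.5. With an intact SPOC domain the day 6 shares of the 5 genes are at most 0.200, apart from 2 DelPID points at 0.500 that rest on 4 and 2 fragments, and in PCGF35_SPOC the day 6 points lie higher with dTAG-13 than without.

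The SPOC line, on which the genes were chosen, is given as a description. Gabra3 had Dom shares of 0.769, 0.818 and 0.875 on day 0 (C11, D9 and H1) and of 0.0833 and 0.182 on NPC day 6 (D9 and H1), the largest fall in group means in the table (0.821 to 0.133). On ES day 1 its share was 1.00, 0.750 and 0.778, a rank of 237 for the fall, so it came in by day 6 alone. At that stage the D9 and H1 values rested on 24 and 11 allelic fragments.

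Nap1l2 was at 0.667, 0.500 and 0.615 on day 0 and at 0.0286 and 0.0625 on day 6, the 2nd largest fall. The 3 day 0 libraries held 34 allelic fragments in all. The group mean of 0.594 lay above every other uninduced Nap1l2 value in the series, which ran from 0.146 to 0.367 in the other lines. Spin4 ranked 3rd, with 0.625, 0.596 and 0.500 on day 0 and 0 of 9 and 1 of 13 Dom fragments on day 6.

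Smarca1 ranked 4th, from 0.700, 0.479 and 0.667 to 0.0476 and 0.200. Heph ranked 28th on day 6, from 0.377, 0.341 and 0.579 to 0.0455 and 0. It ranked 1st on ES day 1, at 0.0351, 0.102 and 0.111, already below every day 0 library. In all 5 genes every NPC day 6 library lay below every day 0 library of the line.

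The boundary between the 5 and other genes was not sharp. Just outside by the day 6 fall was Msn (change of mean share −0.485), beside −0.491 for Smarca1. On ES day 1, Heph (−0.350), Smarca1 (−0.290), Spin4 (−0.286) and Nap1l2 (−0.275) stood beside, among other unchosen genes, Phka1 (−0.276), Ubl4 (−0.274) and Tmem28 (−0.265). The median change over the table in this line was −0.0662 on ES day 1 and −0.175 on NPC day 6. On NPC day 3, in cultures of the same clones, mean shares were 0.247 for Gabra3, 0.199 for Nap1l2, 0.198 for Spin4, 0.165 for Smarca1 and 0.0256 for Heph.

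Whether the falls recurred in clones that the choice did not use was asked in untreated PCGF35_SPOC, against its own day 0. On NPC day 6 the mean Dom share was lower in all 5 genes. It was called lower in 4 of 5, and in 62.2% of the table, by edgeR's quasi-likelihood test at an adjusted p under 0.05. So the number called was near the background, while the size was not: the median change of share was −0.430 over the 5 genes and −0.148 over the table. On NPC day 3 the mean share was lower in 4 of 5 and called lower in 3 of 5 (23.6% of the table), with medians of −0.290 and −0.0559. On ES day 1 it was called in 0 of 5 (0.407% of the table), with 3 of 5 under 0.05 before adjustment and 0 called by DESeq2 or limma.

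Heph, the ferroxidase, showed the largest change in odds in these clones. Its Dom share was 0.450 in F10 and 0.452 in F6 on day 0, and 0.0104 (1 of 96 fragments; 95% Wilson interval 0.00184 to 0.0567) and 0.0312 (1 of 32; 0.00554 to 0.157) on NPC day 6. The clones nearly coincided on days 0, 3 and 6, which did not overlap, while on ES day 1 F10 was at 0.183 and F6 at 0.395. The log2 odds of a Dom fragment fell by 5.52 (SE 0.69, adjusted p = 1.56e-09), and already by 3.42 on day 3 (SE 0.57, adjusted p = 8.46e-06), when the shares were 0.0545 and 0.0870. Such intervals, and the limits given for a count of 0, cover counting error only, since the fragments carry no molecular identifiers.

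Smarca1, the remodeller ATPase, had Dom shares of 0.575 and 0.655 on day 0, 0.276 and 0.375 on day 3, and 0.0952 (2 of 21) and 0.111 (2 of 18) on day 6. Each day lay below the one before it in both clones, with no overlap between day 0 and day 6. The log2 odds fell by 3.69 by day 6 (SE 0.76, adjusted p = 4.17e-05) and by 1.71 by day 3 (SE 0.60, adjusted p = 0.0284). The day 3 call was lost without the F10 day 0 library (adjusted p = 0.0635), the F10 day 3 library (0.273) or the F6 day 0 library (0.148), and without all F10 libraries (0.266).

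Gabra3, the receptor subunit, had shares of 0.638 and 0.750 on day 0, 0.215 and 0.333 on day 3, and 0.182 (4 of 22) and 0.100 (1 of 10) on day 6. The log2 odds fell by 3.33 by day 6 (SE 0.76, adjusted p = 0.000166) and by 2.59 by day 3 (SE 0.52, adjusted p = 8.38e-05). On ES day 1 the clones were far apart, at 0.423 in F10 and 0.733 in F6, so that day 1 overlapped day 0. The day 3 call was lost without the F10 day 3 library (adjusted p = 0.132) or without all F10 libraries (0.102).

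Spin4, the spindlin, started at 0.532 and 0.436, was at 0.417 and 0.312 on day 3, and reached 0.143 (2 of 14) and 0.278 (5 of 18) on day 6. This was a smaller fall than in the SPOC line by group means, −0.274 against −0.535, and the difference was not tested because the SPOC line chose the gene. The log2 odds fell by 1.69 (SE 0.64, adjusted p = 0.0201). The call was lost without the F10 day 0 library (adjusted p = 0.0836), the F10 day 6 library (0.212) or all F10 libraries (0.366), and in a fit of the 2 groups alone (0.0723).

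Nap1l2, the nucleosome assembly protein, was not called on any day. Its shares were 0.167 (5 of 30) and 0.182 (2 of 11) on day 0 and 0 (0 of 13, which allows up to 0.231) and 0.115 (3 of 26) on day 6. The day 6 values lay under those of day 0, with log2 odds of −1.24 (SE 1.12, adjusted p = 0.324). Since Nap1l2 started low in these clones, a fall of the size seen in the SPOC line was not possible here.

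**Figure D2:**
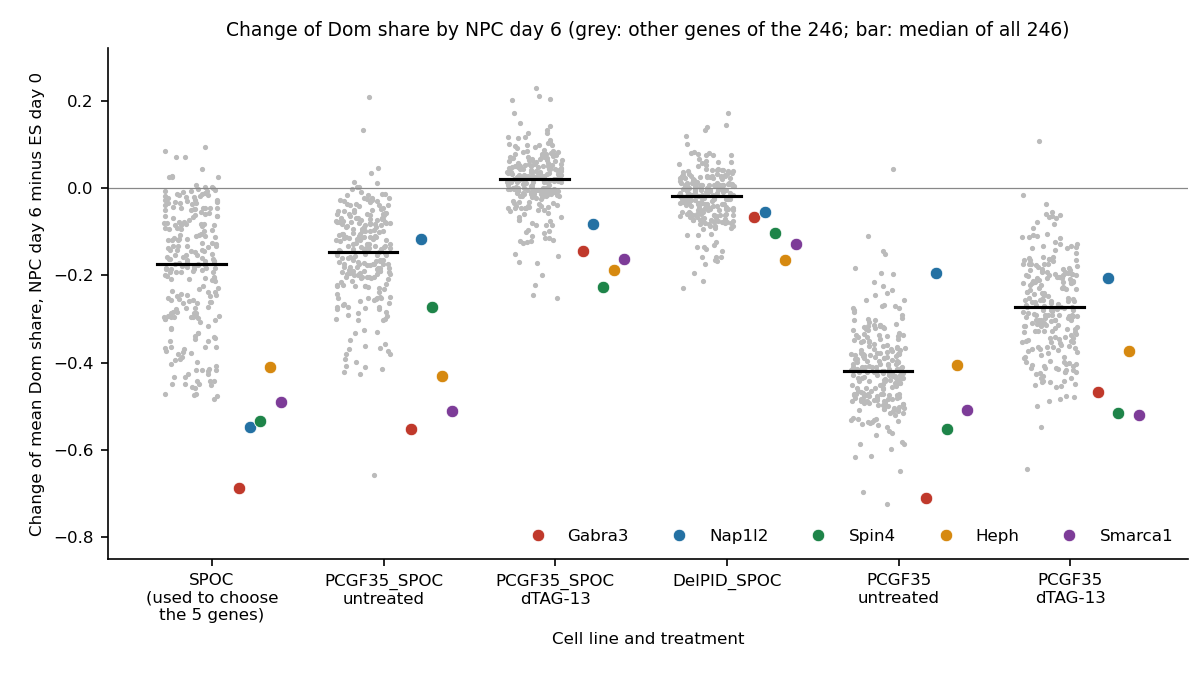
Change of mean Dom share from ES day 0 to NPC day 6 by cell line and treatment; grey points are the other genes of the allelic table, black bars the median of the whole table, coloured points the 5 genes. In untreated PCGF35_SPOC 4 of the 5 genes lie below the bar and Nap1l2 (−0.117) above it, and in PCGF35_SPOC with dTAG-13 and in DelPID_SPOC all 5 lie below bars at 0.0198 and −0.0178.

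The next comparison asked what degrading PCGF3 and PCGF5 did to these genes in the same SPOC-mutant clones. With dTAG-13 the mean Dom share on NPC day 6 was higher in all 5 genes and was called higher in 3 of 5 (70.3% of the table). The median difference of share was 0.209 over the 5 and 0.160 over the table, and in log2 odds the medians were 2.42 and 0.957. On day 3 the share was called higher in 2 of 5 (25.6% of the table). On ES day 1 edgeR called 0 of 5 (0% of the table), with 1 of 5 under 0.05 before adjustment and 0 called by DESeq2 or limma. The number of members called was close to the background on both NPC days. These comparisons share the untreated libraries with those against day 0.

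Heph had shares of 0.220 (13 of 59; Wilson 0.134 to 0.341) in F10 and 0.239 (11 of 46; 0.139 to 0.379) in F6 with dTAG-13 on day 6, above the untreated 0.0104 and 0.0312 with no overlap. The log2 odds were 4.06 higher (SE 0.83, adjusted p = 3.35e-05), and 2.93 higher on day 3 (SE 0.59, adjusted p = 0.000168), when the treated shares were 0.328 and 0.418. Without F10 the day 6 difference was 3.13 with an adjusted p of 0.0571, from single libraries a side that are assumed to vary like the other groups.

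Gabra3 was at 0.484 (15 of 31) and 0.588 (10 of 17) with dTAG-13, against 0.182 and 0.100 untreated. The log2 odds were 2.50 higher (SE 0.88, adjusted p = 0.0110), and 2.21 higher on day 3 (SE 0.53, adjusted p = 0.00121). The day 6 call was lost without the untreated F10 day 6 library (adjusted p = 0.0749) and without all F10 libraries (0.0930). The day 3 call was lost without the untreated (0.258) or the treated (0.224) F10 day 3 library, and without all F10 libraries (0.99 in log2 odds, adjusted p = 0.691).

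Smarca1 was at 0.438 (14 of 32) and 0.344 (11 of 32) with dTAG-13, against 0.0952 and 0.111 untreated, a difference in log2 odds of 2.42 (SE 0.81, adjusted p = 0.00787). That call was lost without the untreated (adjusted p = 0.0796) or the treated (0.0616) F10 day 6 library, and without all F10 libraries (0.257). Spin4 had 0.348 and 0.308 with dTAG-13 against 0.143 and 0.278 untreated, which was not called (log2 odds 0.77, SE 0.74, adjusted p = 0.323). For Nap1l2 the values were 0.250 (1 of 4) and 0.167 (6 of 36) against 0 and 0.115, also not called (adjusted p = 0.285).

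Treated cells were next set against their own day 0. With dTAG-13, all 5 genes had a lower mean share on NPC day 6 than on day 0, with a median change of −0.163, whereas the median of the table was 0.0198. None passed the adjusted threshold: edgeR called 0 of 5 (0.407% of the table), 2 of 5 (Spin4 and Heph) were under 0.05 before adjustment, and DESeq2 and limma called 0. Spin4 went from 0.543 and 0.565 to 0.348 and 0.308 (log2 odds −1.35, SE 0.54, adjusted p = 0.307). Heph was at 0.417 in both clones on day 0 and at 0.220 and 0.239 on day 6 (log2 odds −1.26, SE 0.46, adjusted p = 0.307). For both genes the days did not overlap. Gabra3 (0.591 and 0.771 to 0.484 and 0.588) and Smarca1 (0.566 and 0.542 to 0.438 and 0.344) were also lower in both clones.

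The change to day 6 was then compared between untreated and treated cells in an interaction test, added after the data were examined. The fall was called larger without dTAG-13 in 3 of 5 genes (53.7% of the table). The difference in log2 odds was −4.26 for Heph (SE 0.94, adjusted p = 0.000239), −2.74 for Smarca1 (SE 0.97, adjusted p = 0.0172) and −2.71 for Gabra3 (SE 0.98, adjusted p = 0.0192). It was −0.35 for Spin4 (adjusted p = 0.717) and −0.43 for Nap1l2 (adjusted p = 0.779). Without F10 all 3 calls were lost (adjusted p = 0.0923 for Heph, 0.248 for Smarca1 and 0.268 for Gabra3), with values of −3.34, −2.68 and −3.36 that kept their sign. The Gabra3 and Smarca1 calls were also lost without the untreated F10 day 6 library alone (0.0885 and 0.0914), that of Gabra3 without the treated F10 day 0 library (−1.72, adjusted p = 0.220), and that of Smarca1 without the treated F10 day 6 library (0.0744).

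**Figure D3:**
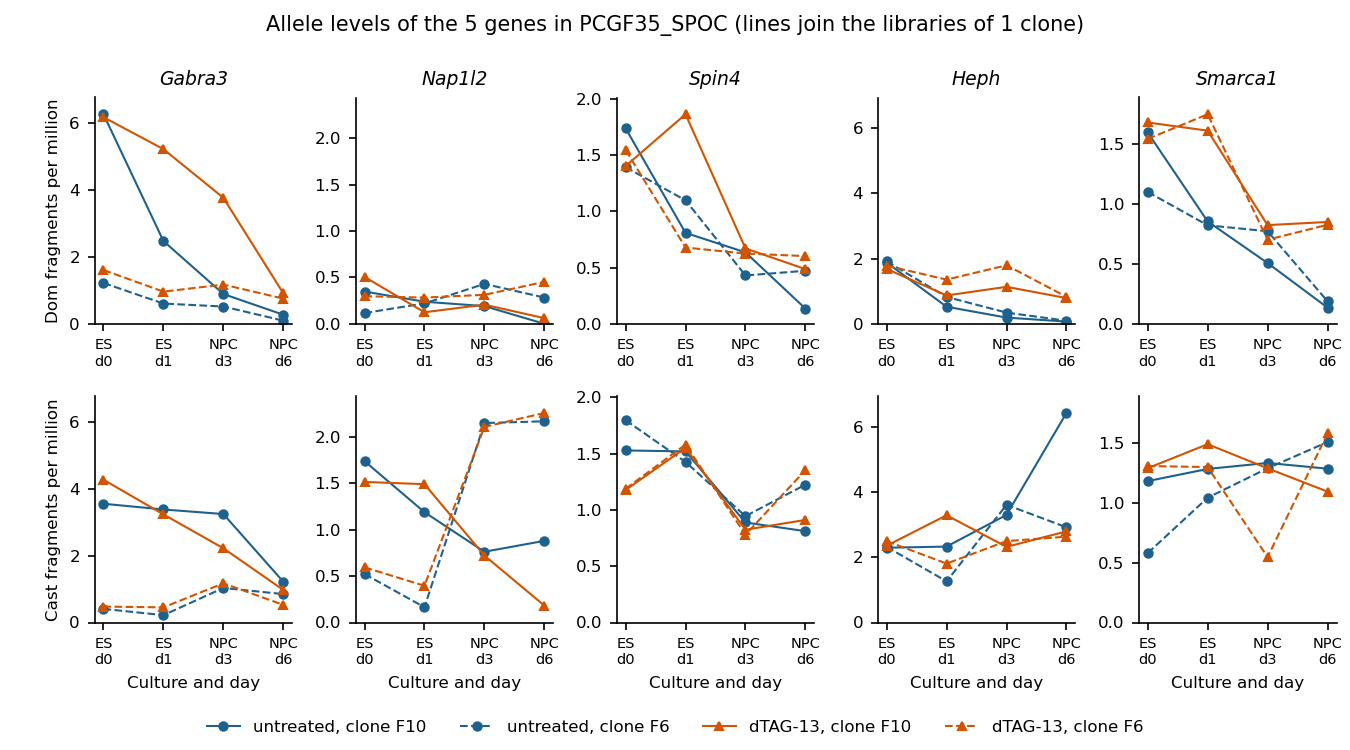
Dom (top) and Cast (bottom) level (CPM) of each gene in PCGF35_SPOC by culture and day; each line joins the libraries of 1 clone, untreated (blue) or with dTAG-13 (orange). The untreated Heph and Smarca1 Dom levels end near 0 while their Cast levels do not, the Gabra3 levels of F10 start several times above those of F6, and the Nap1l2 Cast level is higher on day 6 than on day 0 in F6 and lower in F10.

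Split by allele, the untreated mean Dom level in PCGF35_SPOC changed from 1.90 to 0.0809 CPM for Heph, from 1.35 to 0.162 for Smarca1, from 3.74 to 0.182 for Gabra3 and from 1.56 to 0.303 for Spin4 between day 0 and NPC day 6. The Cast level of Heph was 2.31 and 4.67, and that of Smarca1 0.881 and 1.40. For Spin4 the Cast level was 1.66 and 1.02, lower on day 6 in both clones. For Gabra3 the mean Cast level was 1.98 and 1.03, but the clones went opposite ways, from 3.54 to 1.22 in F10 and from 0.406 to 0.848 in F6. With dTAG-13 the mean Dom level of Gabra3 still went from 3.89 to 0.832, lower in both clones, and its Cast level from 4.26 to 0.973 in F10 and from 0.475 to 0.527 in F6. The total level of Gabra3 on day 0 was 22.3 in F10 and 3.36 in F6, and the group means follow F10.

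DelPID_SPOC asked the same of cells that lack the Polycomb-recruiting repeat of Xist. Against their own day 0, edgeR called 0 of 5 genes lower on ES day 1 (0% of the table), 0 of 5 on NPC day 3 (0.407%) and 0 of 5 on NPC day 6 (1.63%). Before adjustment 0, 1 and 1 of them were under 0.05, the last 2 being Heph, and DESeq2 and limma called 0 each time. Mean shares on day 6 were nonetheless lower than on day 0 in all 5, with a median change of −0.103 against −0.0178 over the table.

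Heph in DelPID_SPOC had 0.594 (A8) and 0.456 (G3) on day 0 and 0.287 and 0.431 on day 6 (log2 odds −0.93, SE 0.45, adjusted p = 0.484). In A8 that was a difference of −0.306, and in G3 of −0.0254. Smarca1 was nearer between clones, from 0.448 and 0.432 to 0.338 and 0.286 (log2 odds −0.73, adjusted p = 0.696). Gabra3 went in opposite directions, from 0.913 to 0.588 in A8 and from 0.544 to 0.733 in G3. Spin4 was at 0.600 and 0.535 on day 0 and 0.417 and 0.512 on day 6, and Nap1l2 at 0.357 and 0.265 and at 0.274 and 0.235. So only the day 6 shares of Heph, Smarca1 and Spin4 lay wholly below those of day 0.

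The fall to day 6 was called larger in untreated PCGF35_SPOC than in DelPID_SPOC for 3 of 5 genes (42.7% of the table). This interaction test was also added after the data were examined. The differences in log2 odds were −4.59 for Heph (SE 0.91, adjusted p = 8.06e-05), −2.96 for Smarca1 (SE 0.93, adjusted p = 0.00988) and −3.20 for Gabra3 (SE 1.03, adjusted p = 0.0118). Spin4 (−1.10, adjusted p = 0.252) and Nap1l2 (−0.996, adjusted p = 0.544) were not called. The Heph call held without F10 and without G3. That of Gabra3 was lost without clone G3 (−0.55, adjusted p = 0.834), without its day 0 library alone (−0.83, adjusted p = 0.726) and without the F10 day 6 library (0.0732). That of Smarca1 was lost without G3 (0.0541), without F10 (0.0829) and without the F10 day 6 library (0.0814).

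Cells with an intact SPOC domain give the other side of the comparison. On NPC day 6, untreated PCGF35 cells had 0 of 67 and 0 of 52 Dom fragments of Gabra3 (which allow shares of up to 0.0448 and 0.0577), 0 of 87 and 1 of 55 of Heph, 0 of 26 and 1 of 23 of Smarca1, 0 of 15 and 0 of 2 of Spin4, and 0 of 12 and 1 of 8 of Nap1l2. In WT cells on the same day the highest share of any of the 5 was 0.0526 (1 of 19, Nap1l2), and the median of the table was 0.0833 and 0.0886. Each of these 4 libraries thus held at most 1 Dom fragment of any of the 5 genes, which for Spin4 and Nap1l2 are few fragments to judge from.

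The SPOC mutation was also compared in the PCGF35 background, untreated on both sides. On NPC day 6 Xist stood at 10925 and 13370 CPM in PCGF35 and at 7783 (F10) and 4488 (F6) in PCGF35_SPOC. The pluripotency marker sum was 346 and 310 against 399 and 972. The sides thus differed in more than the mutation, and what these differences contributed was not tested. With the SPOC mutation the Dom share was called higher in 2 of 5 genes on ES day 1 (64.2% of the table), 4 of 5 on NPC day 3 (86.2%) and 2 of 5 on NPC day 6 (90.7%). The median difference of share on day 6 was 0.0814 over the 5 genes and 0.264 over the table. In log2 odds, the scale of the test, the medians lay closer, at 2.22 and 2.70. Heph was at 0.183 and 0.395 against 0.0714 and 0.0588 on ES day 1 (log2 odds 2.25, SE 0.83, adjusted p = 0.0159), but at 0.0104 and 0.0312 against 0 and 0.0182 on day 6 (log2 odds 1.01, SE 1.61, adjusted p = 0.546). Smarca1 was at 0.400 and 0.441 against 0.0385 and 0.286 on ES day 1 (log2 odds 2.26, SE 0.75, adjusted p = 0.00800) and at 0.0952 and 0.111 against 0 and 0.0435 on day 6 (log2 odds 2.22, SE 1.44, adjusted p = 0.138). For Smarca1 the size was thus about the same on both days and the SE larger on day 6, and a change between the days was not tested in either gene.

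Gabra3 was higher with the SPOC mutation on day 3 (0.215 and 0.333 against 0.0282 and 0.0101, log2 odds 4.05, SE 0.86, adjusted p = 2.70e-05) and on day 6 (0.182 and 0.100 against 0 and 0, adjusted p = 0.00158). Spin4 was higher on day 3 (0.417 and 0.312 against 0.0870 and 0.0588, log2 odds 2.79, SE 0.85, adjusted p = 0.00249) and on day 6 (0.143 and 0.278 against 0 and 0, adjusted p = 0.0156). On day 3 Smarca1 (log2 odds 3.44, adjusted p = 0.000848) and Nap1l2 (0.200 and 0.167 against 0 of 20 and 0 of 16, adjusted p = 0.01003) were also called, and Heph was not (log2 odds 2.17, adjusted p = 0.0582).

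Single libraries carried several of these calls. For ES day 1, Heph was lost without PCGF35 replicate 1 (adjusted p = 0.102), replicate 2 (0.0651) or the F6 library (0.143), Smarca1 was lost without PCGF35 replicate 1 (0.82 in log2 odds, adjusted p = 0.430), and Nap1l2 was gained without the F10 library (adjusted p = 0.0315). Nap1l2 on day 3 was lost without PCGF35 replicate 1 (0.0631). On day 6, Spin4 was lost without PCGF35 replicate 1 (0.355) or the F6 library (0.0850), and Gabra3 without the F10 library (0.0649). The day 3 calls of Gabra3, Smarca1 and Spin4 held in all 10 alternatives that could be fitted for them.

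With an intact SPOC domain, edgeR called the Dom share higher with dTAG-13 in 0 of 5 genes on ES day 1 (15.9% of the table), 2 of 5 on NPC day 3 (62.2%) and 1 of 5 on NPC day 6 (79.7%). In the ES comparison 0 of 5 were under 0.05 before adjustment, and DESeq2 and limma called 0. The median difference of share on day 6 was 0.0385 over the 5 genes and 0.147 over the table, whereas in log2 odds the order was the other way, with medians of 2.07 and 1.87. With dTAG-13 Heph had on that day 0 of 41 and 0 of 29 Dom fragments (which allow up to 0.0732 and 0.103). Gabra3 was the gene called on day 6, at 0.0385 and 0.192 with dTAG-13 against 0 and 0 untreated (adjusted p = 0.00101), and that call was lost without the treated replicate 2 (0.0745). On day 3 Gabra3 was at 0.216 and 0.235 against 0.0282 and 0.0101 (log2 odds 3.90, SE 0.98, adjusted p = 0.000840). Heph was at 0.0930 and 0.0769 against 0.0135 and 0.0169 (log2 odds 2.53, SE 1.14, adjusted p = 0.0483), which was lost without any 1 of the 4 libraries (0.0886 to 0.206).

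DelPID_SPOC against DelPID compared the SPOC mutation in cells without the repeat. Here too Xist differed on NPC day 6, at 10732 and 8554 CPM in DelPID and 6466 (A8) and 6973 (G3) in DelPID_SPOC. The pluripotency marker sum was 590 and 855 against 953 and 998. What these differences contributed was not tested. The Dom share was called higher in 4 of 5 genes on NPC day 3 (70.7% of the table) and in 5 of 5 on NPC day 6 (71.1%). The day 6 medians were 0.240 over the 5 and 0.197 over the table. Gabra3 on day 6 was at 0.588 and 0.733 against 0 of 9 and 1 of 7 fragments (adjusted p = 0.00166). Heph was at 0.287 and 0.431 against 0.0833 and 0.0741 (log2 odds 2.59, SE 0.78, adjusted p = 0.00316), and Nap1l2 at 0.274 and 0.235 against 0 of 3 and 1 of 34 (adjusted p = 0.00805). Smarca1 (0.338 and 0.286 against 0.500 and 0.0400) and Spin4 (0.417 and 0.512 against 0.500 and 0.200) overlapped between the lines, although the fit, which weights by fragments, called both (adjusted p = 0.0222 and 0.0410).

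The day 6 calls in DelPID cells rested on DelPID replicate 2, since replicate 1 was so shallow. Without replicate 2 all but that of Gabra3 were lost (adjusted p = 0.113 for Heph and 0.339 for Nap1l2), and the log2 odds turned to −1.10 for Smarca1 (adjusted p = 0.711) and −0.25 for Spin4 (0.916). Gabra3 was lost without replicate 1 (0.0559), Nap1l2 and Smarca1 without the A8 library (0.0683 and 0.0691) and Spin4 without the G3 library (0.127). On day 3, Smarca1 (adjusted p = 0.00527), Gabra3 (0.0217), Spin4 (0.00901) and Heph (0.00450) were called and Nap1l2 was not (0.456). All 4 were lost without DelPID replicate 2 (0.0548 to 0.135), Gabra3 also without replicate 1 (0.145) or the A8 library (0.133), and Spin4 also without the G3 library (0.0627).

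The genes differed in total level as well, summed over both alleles and all fragments. dTAG-13 in uninduced cells was not followed by a call in any of them: edgeR called 0 of 5 in PCGF35 (0% of 16227 genes tested) and 0 of 5 in PCGF35_SPOC (0%), with 0 of 5 under 0.05 before adjustment and 0 by DESeq2 in both. Between day 0 and NPC day 6 in untreated PCGF35, 3 of 5 were called changed (29.5% of all genes). Nap1l2 fell from 22.0 and 12.1 to 5.04 and 4.35 CPM (log2 fold change −1.84, SE 0.68, adjusted p = 0.0392), and Spin4 fell from 5.40 and 8.50 to 2.14 and 1.42 (−1.91, SE 0.44, adjusted p = 0.00180). Heph rose from 5.33 and 4.87 to 15.2 and 13.9 (1.53, SE 0.43, adjusted p = 0.00733), the opposite direction to its Dom share. Nap1l2 was lost without day 0 replicate 1 (−1.29, adjusted p = 0.249) or either day 6 library (0.154 and 0.159), and Heph without day 0 replicate 2 (0.0633).

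In untreated PCGF35_SPOC, 1 of 5 total levels was called changed (7.37% of all genes). Spin4 fell from 7.37 and 9.05 to 2.10 and 3.68 (log2 fold change −1.48, SE 0.43, adjusted p = 0.0286). That call was lost without the F10 day 0, F10 day 6 or F6 day 0 library. In DelPID_SPOC edgeR called 0 of 5 (19.2% of all genes), with Heph, at 6.80 and 6.20 against 14.4 and 14.2, just over the threshold (1.14, SE 0.42, adjusted p = 0.0508). It was the 1 gene under 0.05 before adjustment and the 1 that DESeq2 called (adjusted p = 0.0404), and with the clone as a replicate block it was called by edgeR (adjusted p = 0.0229).

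**Figure D4:**
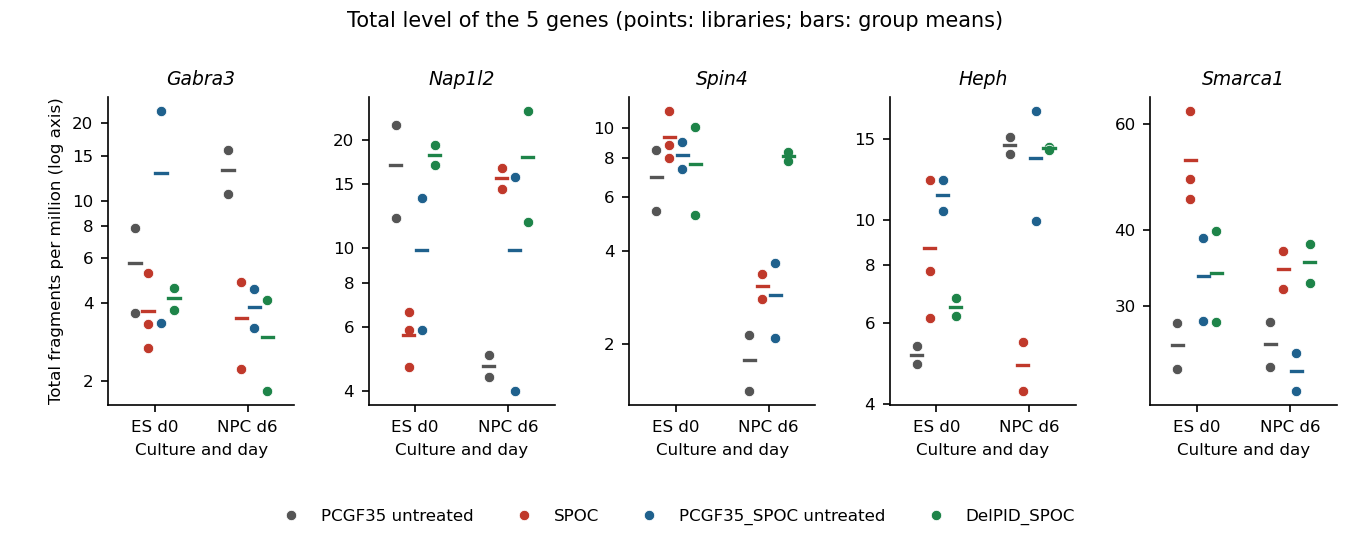
Total level in CPM (log axis) of each gene on ES day 0 and NPC day 6 in untreated PCGF35, SPOC, untreated PCGF35_SPOC and DelPID_SPOC; points are libraries and bars group means. Spin4 lies lower on day 6 in the first 3 lines and not in DelPID_SPOC, and Heph lies at 13.9 to 15.2 on day 6 in PCGF35 and DelPID_SPOC and at 4.26 and 5.44 in SPOC.

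The Cast level comes from the chromosome that does not make Xist. It also holds changes with differentiation and any loss of the Cast X chromosome, which cannot be told apart here. In untreated PCGF35 the Cast level was called changed in 2 of 5 genes between day 0 and NPC day 6 (21.3% of 13675 genes tested). The Cast level of Heph rose from 1.01 to 5.68 CPM (log2 fold change 2.49, SE 0.51, adjusted p = 0.00102) and that of Smarca1 from 0.693 to 2.02 (1.52, SE 0.47, adjusted p = 0.0202). Gabra3 had 0.434 and 0.920 on day 0 and 4.22 and 5.66 on day 6 (2.85, SE 1.06), just over the threshold by edgeR (adjusted p = 0.0516). It was called by DESeq2 (adjusted p = 0.0432), without the filter on low counts (0.0410), and in a fit of the 2 groups alone without (0.00258) and with (0.00364) a replicate block. Its total level in the same comparison (1.23, SE 0.92, adjusted p = 0.325) was likewise called in the fit of the 2 groups alone (0.0484) and with the block (0.00493). Heph held in all 9 alternatives, and Smarca1 was lost without either day 0 library or day 6 replicate 2 (0.0919 to 0.158). In untreated PCGF35_SPOC edgeR called 0 of 5 (3.41% of all genes), with 1 of 5 (Heph) under 0.05 before adjustment and 0 by DESeq2. In DelPID_SPOC it called 1 of 5 (11.5%): Heph rose from 1.01 to 2.88 (1.54, SE 0.51, adjusted p = 0.0434), lost without any 1 of the 4 libraries (0.0511 to 0.258). In none of the 6 line and treatment pairs with a day 0 did the mean Cast level of Heph on day 6 lie under that of day 0.

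Relatives and partners of the 5 genes were read in the same total-level tests. In these edgeR called 29.5% of all genes in untreated PCGF35 and 7.37% in untreated PCGF35_SPOC. The tests had no replicate block, and with the clone as a block more genes were called in PCGF35_SPOC. The lower share there thus does not show that this line changed less. Of 12 other GABA-A receptor subunit genes, 11 passed the filter, and in untreated PCGF35 2 rose by NPC day 6 (Gabra2, log2 fold change 3.16, and Gabra5, 1.73) and 2 fell, among them the X-linked Gabre (−2.09), a number near that background. In untreated PCGF35_SPOC Gabre (−2.26) and Gabrg1 (−2.55) fell and none rose. Of 4 other nucleosome assembly genes 1 fell in PCGF35, Nap1l1 (−0.51), and 0 were called in PCGF35_SPOC. Neither Spin1 nor Spin2c was called in either line, with edgeR values from 0.14 to 0.93. Among iron genes, Cp, which encodes the ferroxidase ceruloplasmin, rose in PCGF35 (3.81, adjusted p = 0.0496) from a mean of 0.0620 to 0.894 CPM, and Slc40a1, the iron exporter, had 0.16.

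The other ISWI ATPase and its partners, 10 genes, held 3 that rose in PCGF35 (Rbbp4, 0.69; Bptf, 0.51; Baz1b, 0.34) and 2 that fell (Rbbp7, −1.40, and Smarca5, −0.52), and edgeR called 0 in PCGF35_SPOC, beside the same 29.5% and 7.37% of all genes. Rbbp7 is X-linked like Smarca1, and its value holds both alleles. Smarca1 itself stood at 23.6 and 28.1 CPM on day 0 and 23.8 and 28.2 on day 6 in PCGF35.

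Across the 25 groups that the choice did not use, the mean Dom shares of the 5 genes ran together, with Pearson's r from 0.79 (Nap1l2 and Smarca1) to 0.95 (Gabra3 and Heph). These r are descriptions over groups that share clones, libraries and the general fall of the chromosome. Among 228 genes with at least 20 median allelic fragments, BC023829 (0.97) was among the most like Gabra3 and Eda (0.96) among the most like Heph. Spin4 ran with Phka1 (0.96) and Hdac8 (0.95), Smarca1 with Cd99l2 and Nhsl2 (both 0.94), and Nap1l2 with Dmd and Gpc3 (both 0.88). Phka1 was also among the genes just outside the choice.

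The nearest genes of the table differed from the 5 in mixed ways. Gabre, 0.382 Mb from Gabra3, had a mean Dom share of 0.0556 on NPC day 6 in the SPOC line, and Cetn2, 0.262 Mb away on the other side, 0.300, beside 0.133 for Gabra3. On the 2 sides of Nap1l2, Phka1 was at 0.0649 and 4930519F16Rik, whose locus holds Nap1l2 in the annotation, at 0.167. On one side of Spin4, Zxda was at 0.0714. On the 2 sides of Heph, Msn was at 0.0484 and Eda2r at 0.394, and on those of Smarca1, Tenm1 (4.62 Mb away) at 0.250 and Ocrl at 0.274. In untreated PCGF35_SPOC on the same day Eda2r was at 0.419 and Msn at 0.182, against 0.0208 for Heph, and Cetn2 was at 0.193 and Gabre at 0.102, against 0.141 for Gabra3.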

How the data were processed

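Chromatin-associated RNA of 58 libraries in 28 groups was analysed from tables deposited per library. Per the submitters' processing notes, Bowtie2 2.3.2, STAR 2.4.2a and featureCounts 1.5.2 were used. The authors removed ribosomal reads, aligned the rest to mm10 with the strain variants masked, split fragments by allele, and deposited counts per gene over whole transcripts, introns included and by strand, for all, Cast and Dom fragments. The Dom share deposited by the authors as a fraction, for X-linked genes that passed their filters, was recomputed here from the allele counts (largest difference 5.6e-16). 0 columns belonged to other samples.

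Dom against Cast counts were fitted per gene with edgeR 4.0.16 (R 4.3.3) as log2 odds, with 1 term per library and 1 allele term per group over all libraries, and tested by the two-sided quasi-likelihood test with Benjamini-Hochberg adjustment over the table (threshold 0.05). Total and Cast levels were fitted likewise over all genes after edgeR's filter on low counts, with TMM scaling, and levels are printed as CPM, counts scaled to a library's total counted fragments. DESeq2 1.42.0, limma 3.58.1, other gene sets and filters, a replicate block, fits of the compared groups alone and leaving out libraries or clones were alternatives. Wilson intervals are at 95%, and a count of 0 allows 3 counts of the total. The fits were tested on simulated data for untreated PCGF35_SPOC. For the NPC day 6 against day 0 share, 96% of 100 changed genes among 246 were called, and 2.74% of the unchanged. For total level, 98% of 200 changed genes among 16118 were called, and 0.0565% of the unchanged. These percentages hold only for the changes and spread that were simulated. The chosen genes held fewer allelic fragments than the median gene of the table. How often a true change in them would be called was not tested.

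The 5 genes, the gene lists and the tests were chosen with earlier results of these data known. Besides the 5, the text names Xist and Spen as checks, the 2 genes most like each member in mean share (at least 20 median fragments), at most 2 neighbours each (the nearest on either side), the genes next in rank to the choice, and family members from fixed lists. Some genes that these rules name are not reported here. Replicate numbers stand for clones in PCGF35_SPOC and DelPID_SPOC. Same-numbered libraries deviated together in expression (r from 0.22 to 0.93 in PCGF35_SPOC, 0.34 to 0.90 in DelPID_SPOC, and 0.34 to 0.80 between untreated and treated PCGF35 libraries of a day) and hardly in Dom share (−0.017 to 0.32, 0.026 to 0.26 and −0.025 to 0.26). No 2 replicates agreed within sampling noise (chi-square per degree of freedom from 11.5 in 32 pairs). P-values measure only the spread between these cultures. Promoter sequences came from RefSeq and were matched to gene starts within 1000 bases, and Python 3.11.15 collected the values.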

Additional observations from a re-analysis of the deposited data

Results flagged for a closer look

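6 results differed between lines or treatments by a test of the difference itself, each with 2 libraries a group. The change in log2 odds of a Dom fragment from ES day 0 to NPC day 6 was lower in untreated PCGF35_SPOC than in DelPID_SPOC by −4.59 for Heph, −2.96 for Smarca1 and −3.20 for Gabra3. It was lower without than with dTAG-13 in PCGF35_SPOC by −4.26 for Heph, −2.74 for Smarca1 and −2.71 for Gabra3. Both interaction tests were added after the data were examined and share the untreated PCGF35_SPOC libraries. 42.7% and 53.7% of all genes of the allelic table were called in the same direction. Of the 6, the Heph difference from DelPID_SPOC held in all 16 alternatives, and that between treatments in 14 of 15.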

How the results depend on the processing

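Of 45 values called for the 5 genes, the falls of Heph, Smarca1 and Gabra3 to NPC day 6 in untreated PCGF35_SPOC held in all 11 alternatives. Of 95 values not called, 45 changed sign and 5 were called in at least 1 alternative. With limma on the shares the members called in PCGF35 with dTAG-13 went from 2 to 0 on day 3 and from 1 to 0 on day 6, those of DelPID_SPOC against DelPID on day 6 from 5 to 3, and those of PCGF35_SPOC against PCGF35 on day 6 from 2 to 1. With DESeq2 there was 1 in place of 2 for dTAG-13 on day 3 in PCGF35_SPOC and in PCGF35, and for PCGF35_SPOC against PCGF35 on day 6, as there was for dTAG-13 in PCGF35 on day 3 over all X-linked genes with a mean of 10 allelic fragments. Without clone F10 the fall to day 3 was called in 1 in place of 3, dTAG-13 on days 3 and 6 in 1 and 0 in place of 2 and 3, PCGF35_SPOC against PCGF35 on day 6 in 1, and the interaction with treatment in 0 in place of 3. Without G3 the interaction with DelPID_SPOC was called in 1. With only the libraries compared, dTAG-13 on day 6 in PCGF35_SPOC and PCGF35_SPOC against PCGF35 on day 6 were called in 1 each, and the Spin4 total and Heph Cast calls were lost, leaving 0. Requiring 10 fragments in every library left 1 gene to test for DelPID_SPOC against DelPID on each day, called both times, and 3 for PCGF35_SPOC against PCGF35 on day 6, with 1 called. For single genes, DESeq2 lost the Gabra3 calls for dTAG-13 on day 3 in PCGF35_SPOC (adjusted p = 0.111), for DelPID_SPOC against DelPID on day 3 (0.05003) and for the interactions with DelPID_SPOC (0.0700) and treatment (0.0918), limma lost, among others, Nap1l2 on day 3 between PCGF35_SPOC and PCGF35 (0.112), and testing over all X-linked genes lost, among others, the Smarca1 fall to day 3 in PCGF35_SPOC (0.0761).

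With the replicate block, Heph total level in DelPID_SPOC was called, 1 in place of 0, as with DESeq2. It also called the Gabra3 total and Cast levels in PCGF35 (adjusted p = 0.00493 and 0.00364, fits of the 2 groups). The block changed no other count of called members past 1.5 times, but over all genes it took the total-level calls in untreated PCGF35_SPOC from 1196 to 3018.

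Leaving out single libraries gave these lowest and highest numbers of members called. Against day 0 in PCGF35_SPOC they were 1 to 3 on day 3 and 3 to 4 on day 6, and with dTAG-13 1 to 2 and 1 to 3. In PCGF35 with dTAG-13 they were 1 and 1 on day 3 and 0 to 1 on day 6. For DelPID_SPOC against DelPID they were 0 to 3 and 1 to 4, and for PCGF35_SPOC against PCGF35 0 to 3 on ES day 1, 3 to 4 on day 3 and 1 to 2 on day 6. Both interactions gave 1 to 3. Total levels gave 2 and 2 in PCGF35 and 0 to 1 in PCGF35_SPOC, and Cast levels 1 to 2 in PCGF35 and 0 and 0 in DelPID_SPOC. Comparisons with 0 called stayed at 0. 2 called values turned sign, both without DelPID NPC day 6 replicate 2: Spin4, from −0.25 to 1.73 over the libraries left out, and Smarca1, from −1.10 to 3.32. With 24 to 44 median allelic fragments a library, depth limits what can be said of single days for each gene.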

Other observations

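The level of Nap1l2 from the Cast allele in the SPOC line went from a mean of 0.302 CPM on day 0 to 2.65 on NPC day 6, while its Dom level went from 0.436 to 0.128. The mean Cast level of Gabra3 in the same line went from 0.255 to 1.25, while its Dom level went from 1.25 to 0.167. In both genes a fall of Dom share thus included a higher Cast mean, whereas for Spin4 the Cast level went from 1.33 to 0.882. These values come from the libraries that chose the genes and were not tested.

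The Heph share on ES day 1 differed between the clones of PCGF35_SPOC more than between treatments. It was 0.183 in F10 and 0.395 in F6 untreated, and 0.209 and 0.429 with dTAG-13, from day 0 shares of 0.417 to 0.452 in all 4 libraries. The Gabra3 share on the same day was 0.423 in F10 and 0.733 in F6 untreated, and 0.618 and 0.680 with dTAG-13. The clones were single libraries at each point, and this difference was not tested.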
